A study of Mus musculus with 7 samples.

Results

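The CRH and PACAP stress peptide systems were followed here through 5 genes, taken by symbol from a count table of 55367 genes: the peptide precursors Crh and Adcyap1, the binding protein Crhbp and the receptors Crhr1 and Adcyap1r1. All 5 had enough counts to be among the 17833 genes tested. The libraries were bulk RNA-seq of total RNA from C57BL/6J mouse brain at P90, labelled as medial prefrontal cortex neurons projecting to the lateral habenula. There were 4 CRS and 3 noCRS libraries, and the series title places the contrast under chronic stress. The CRS procedure, the way the neurons were marked and collected, and the number of animals behind the libraries are not given in the sources used here, so p-values measure the spread between these libraries, which may be technical.

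CRH is the peptide that starts the hormonal stress response from the hypothalamus, and in the cortex it is made by interneurons. CRH-binding protein is a secreted protein that captures CRH and limits its access to receptors, and in the cortex it is known from somatostatin interneurons. CRHR1 is a G protein-coupled receptor that raises cAMP. PACAP, the product of Adcyap1, is a neuropeptide of the secretin family made by excitatory neurons among others, and its receptor, encoded by Adcyap1r1, raises cAMP and calcium in neurons and is also expressed by glia.

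The binding protein and the PACAP precursor were present in all 4 CRS libraries and at 0 counts in all 3 noCRS libraries. The PACAP receptor was present in every library and lay lower in CRS, short of the threshold. Crh and Crhr1 were detected in a scatter of libraries in both groups. With p-values from edgeR's quasi-likelihood method, adjusted after Benjamini-Hochberg over all tested genes at a threshold of 0.05, 2 of the 5 genes rose and 0 fell, against 2.30% of all tested genes called (2.07% higher and 0.230% lower in CRS). DESeq2 called the same number of members, 2, against 9.14% of its genes, and limma-voom also 2, against 3.58%. With each method these were Crhbp and Adcyap1, which entered the edgeR test through their CRS counts alone. The shares are given as background, and enrichment was not tested. Of the 5 genes 4 had a positive log2 fold change, against 49.2% of tested genes. Over the table the split was 369 higher and 41 lower with TMM scaling, and 248 higher and 64 lower with library totals alone. The median log2 fold change of the 5 genes was 3.30, and that of all tested genes was -0.02. The 3.30 is the value of Crhr1, whose 95% interval was -3.32 to 9.92. Crhbp and Adcyap1 lie above it, also at their lower bounds, so their placing cannot move the median.

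The libraries held between 28677703 and 39965667 counts. Levels are given as CPM, counts scaled to the TMM-corrected library size. The lowest level counted as detected, 3 counts, was worth between 0.0724 and 0.0990 CPM per library, and over a whole group 0.0224 CPM in CRS and 0.0286 CPM in noCRS. Floors cover counting error only. Detection was uneven between replicates: of 14859 tested genes with at least 100 counts in 1 CRS library, 14.4% had 0 counts in another CRS library. Over all tested genes 26.7% had 0 counts in at least 1 library, as had 4 of the 5 members. Glial transcripts were abundant in both groups. The oligodendrocyte markers summed to between 24250 and 47450 CPM in CRS and between 28960 and 33350 CPM in noCRS, and those of excitatory cortical neurons to between 496 and 747 CPM in CRS and between 20.2 and 39.9 CPM in noCRS. Slc17a7, the vesicular glutamate transporter that defines cortical projection neurons, had at most 13.5 CPM in CRS and at most 0.603 CPM in noCRS, with 0 counts in noCRS replicates 2 and 3.

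**Figure D1:**
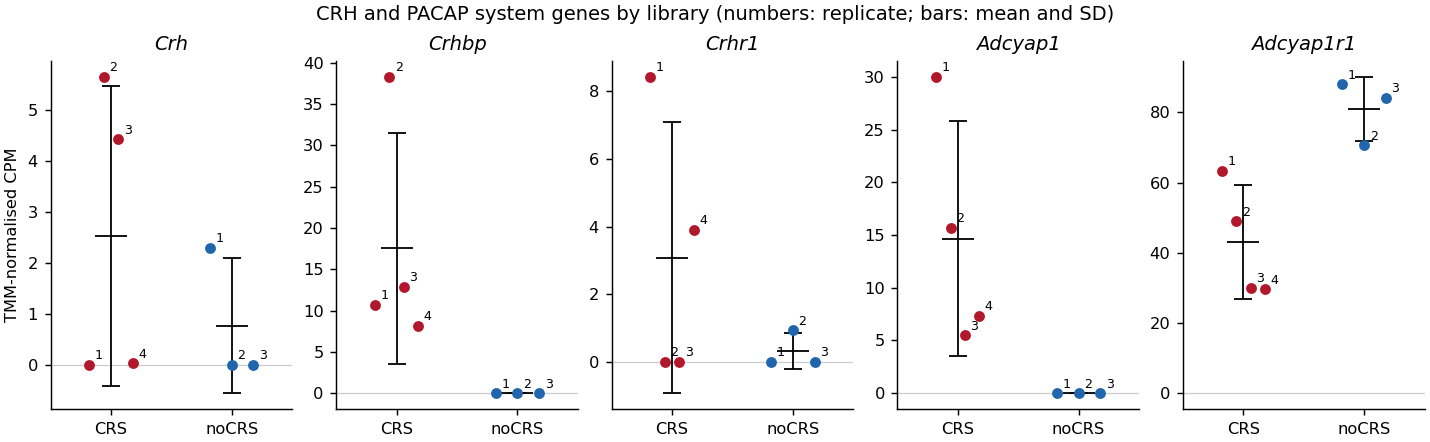
TMM-normalised CPM of each gene in every library, CRS in red and noCRS in blue; numbers give the replicate, and bars the mean and SD (n = 4 and n = 3). Crhbp and Adcyap1 lie at 0 in the 3 noCRS libraries, Adcyap1r1 lies lower in CRS (29.6 to 63.4 CPM) than in noCRS (70.7 to 88.1 CPM), and Crh and Crhr1 overlap between groups.

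Among the CRH genes, the ligand came first in the comparison. Crh (chromosome 3, 19693401 to 19695396 on GRCm38, minus strand, protein coding) had 0, 181, 134 and 1 counts in CRS replicates 1 to 4, and 95, 0 and 0 counts in noCRS replicates 1 to 3. The groups overlapped, and a single noCRS library held every count of that group. On the CPM scale Crh averaged 2.52 ± 2.94 in CRS (SD, n = 4) and 0.764 ± 1.32 in noCRS (SD, n = 3). The log2 fold change was 1.72 ± 2.63 SE (95% interval -4.29 to 7.72, edgeR adjusted p = 0.888), an interval too wide to show a difference in either direction at this depth. Without CRS replicate 2 the CRS mean was 1.48 CPM, and without noCRS replicate 1 the noCRS mean was 0.

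The other CRH-family ligands and the second receptor were nearly absent. Of Ucn, Ucn2, Ucn3 and Crhr2, the urocortins and the CRH receptor that prefers them, 0 of 4 passed the expression filter and 3 had 0 counts in all 7 libraries. Ucn had at most 0.759 CPM in CRS and at most 1.21 CPM in noCRS. Hypothalamic neurons are a major source of CRH in the brain, and 8 markers of habenular, thalamic and hypothalamic neurons were set beside these genes. Of the 8, 2 were tested, 1 rose and 0 fell, against 2.07% of all tested genes higher and 0.230% lower. The one that rose was Slc17a6, a vesicular glutamate transporter of subcortical neurons (edgeR adjusted p = 0.0117). It had 9.45, 10.8, 21.6 and 8.10 CPM in CRS replicates 1 to 4 and 0 counts in every noCRS library. It too was counted in all CRS and no noCRS libraries, as were 0.611% of tested genes. Tcf7l2, a transcription factor of thalamic and habenular neurons that glia also express, had 35.4 to 121 CPM in CRS and 36.9 to 90.0 CPM in noCRS, which overlapped. The other 6 were lower: Gpr151 reached 2.27 CPM, Tac2 1.17 CPM, Avp 0.660 CPM, Oxt 0.130 CPM and Pou4f1 0.0330 CPM in CRS, all with 0 counts in noCRS, and Sim1 had no counts. The list summed to 50.1, 46.2, 91.5 and 132 CPM in CRS and to 90.0, 74.3 and 36.9 CPM in noCRS, and its part in the results was not tested.

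Crhbp (chromosome 13, 95431371 to 95444924, minus strand, protein coding) had 355, 1228, 391 and 313 counts in CRS replicates 1 to 4 and 0 counts in each noCRS library. These were 10.7, 38.3, 12.9 and 8.16 CPM in CRS. Every CRS library lay above every noCRS library, and CRS replicate 2 held 54.7% of the summed CRS CPM. The mean of 17.5 ± 14.0 CPM in CRS (SD, n = 4) was at least 614-fold higher than the noCRS group floor (edgeR adjusted p = 0.0130), and at least 371-fold higher without CRS replicate 2, at 10.6 CPM. The call held without each library in turn (adjusted p = 0.0222 to 0.0448). Crhbp entered the test through its CRS counts alone.

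CRS replicate 2 was highest in both Crhbp and interneuron markers, while replicate 4 was second in the markers and lowest in Crhbp. The 10 markers of GABA interneurons summed to 256, 1007, 331 and 373 CPM in CRS replicates 1 to 4, and to 208, 129 and 144 CPM in noCRS replicates 1 to 3. Of every 1000 counts on those markers there were 41.9, 38.05, 38.95 and 21.8 counts of Crhbp in CRS replicates 1 to 4. The noCRS libraries held 17319 interneuron marker counts in all and 0 of Crhbp, which allows up to 0.173 per 1000. Within that list Sst, the peptide of the interneurons best known for Crhbp, had 50.5, 398, 99.3 and 124 CPM in CRS, and 2.34, 2.41 and 2.87 CPM in noCRS. Of the 8 tested markers 2 rose, Sst and Gad1, and 0 fell, against 2.07% of tested genes higher and 0.230% lower. The list did not move as one: Adarb2, a marker of another interneuron class, averaged 20.5 ± 9.12 CPM in CRS (SD, n = 4) and 45.5 ± 14.3 CPM in noCRS (SD, n = 3), with a log2 fold change of -1.15 (edgeR adjusted p = 0.240). The log2 fold changes of Calb2 and Pvalb were -0.04 and 0.01. Of the noCRS counts on the list, 5668 were of Calb2 and 4930 of Adarb2, against 265 of Sst, so the limit per 1000 rests mostly on markers other than Sst. Sst missed the threshold when noCRS replicate 1 or 2 was left out, and Gad1 when any library except CRS replicate 2 was. Slc32a1, which loads GABA into vesicles, had 0 counts in CRS replicates 1 and 2 and in all noCRS libraries. In bulk RNA, fewer cells of a type and less RNA per cell cannot be told apart, and the part of the interneuron transcripts in the Crhbp difference was not tested.

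Crhr1 (chromosome 11, 104132855 to 104175523, plus strand, protein coding) had 279, 0, 0 and 150 counts in CRS replicates 1 to 4, and 0, 29 and 0 counts in noCRS replicates 1 to 3. It averaged 3.08 ± 4.01 CPM in CRS (SD, n = 4) and 0.310 ± 0.538 CPM in noCRS (SD, n = 3). The receptor was thus listed at 0 in 2 of 4 CRS and 2 of 3 noCRS libraries, and the groups overlapped. The log2 fold change was 3.30 ± 2.90 SE (95% interval -3.32 to 9.92, edgeR adjusted p = 0.768). Without noCRS replicate 2 the noCRS mean was 0, and without CRS replicate 1 the CRS mean was 1.30 CPM.

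Crh and its receptor were found in different libraries. Of the 6 libraries with more than 3 counts of either gene, 0 had more than 3 counts of both: Crh was counted in CRS replicates 2 and 3 and noCRS replicate 1, Crhr1 in CRS replicates 1 and 4 and noCRS replicate 2. Their log2 CPM values had a Pearson r of -0.70 over the 7 libraries, which share sequencing depth and the uneven detection described above, and this is given as a description only.

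In the PACAP system, the ligand gene Adcyap1 (chromosome 17, 93199017 to 93206537, plus strand, protein coding) had 994, 504, 167 and 282 counts in CRS replicates 1 to 4 and 0 counts in each noCRS library. These were 30.02, 15.7, 5.51 and 7.35 CPM in CRS. All 4 CRS libraries lay above the noCRS libraries, with replicate 1 holding 51.2% of the summed CRS CPM. The mean of 14.65 ± 11.2 CPM in CRS (SD, n = 4) was at least 513-fold higher than the noCRS group floor (edgeR adjusted p = 0.0176). Without CRS replicate 1 the mean was 9.53 CPM, at least 334-fold higher, and the adjusted p was 0.0530. Without noCRS replicate 2 the adjusted p was 0.0501. Like Crhbp, this gene entered the test through its CRS counts alone.

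Adcyap1 was set beside markers of excitatory cortical neurons, of which 8 of 8 had positive fold changes and 3 rose (against 2.07% of tested genes higher). Per 1000 counts on these markers there were 47.8, 26.03, 11.1 and 9.83 counts of Adcyap1 in CRS replicates 1 to 4. The noCRS libraries held 2960 such marker counts and 0 of Adcyap1, which allows up to 1.01 per 1000. CRS replicate 1, highest in Adcyap1, was also highest in Slc17a7 (13.5 CPM) and in Tbr1, a transcription factor of deep-layer neurons (24.6 CPM), but not in the sum of the list, where replicate 4 was highest. The part of the excitatory transcripts in the Adcyap1 difference was not tested.

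**Figure D2:**
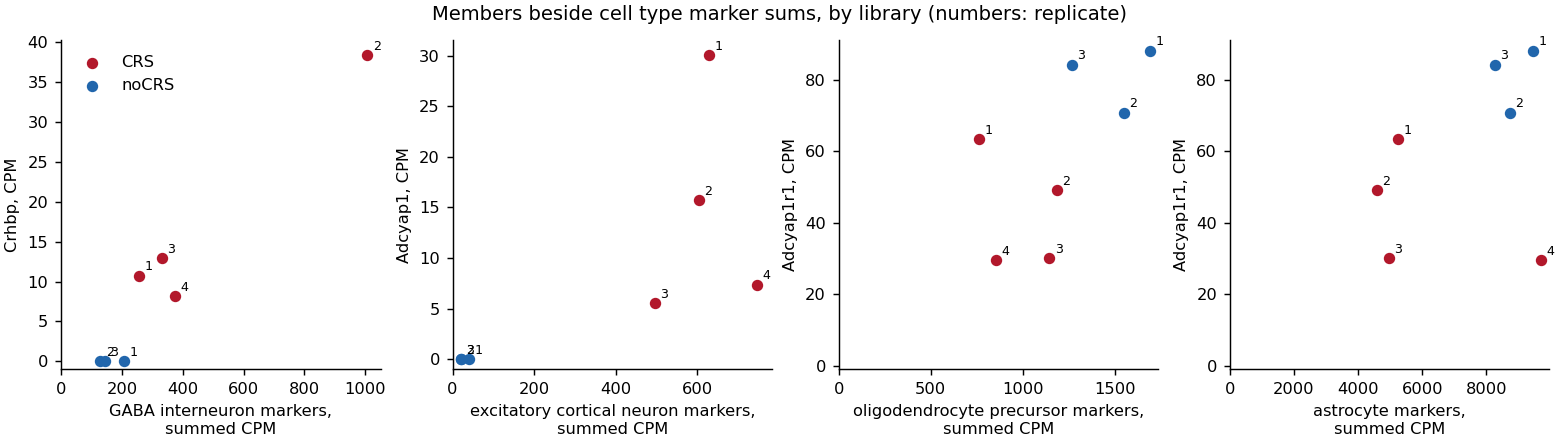
CPM of Crhbp, Adcyap1 and Adcyap1r1 (vertical axes) against the summed CPM of a marker list (horizontal axes) in each library, CRS in red and noCRS in blue, numbered by replicate. In CRS replicate 2 both Crhbp (38.3 CPM) and the interneuron sum (1007 CPM) are highest; the noCRS libraries sit at 0 for Crhbp and Adcyap1 and in the upper right for Adcyap1r1.

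Genes with 0 counts in every noCRS library and at least 1 in every CRS library made up 0.611% of tested genes. Among the 2379 genes whose CRS mean lay between 10 and 20 CPM, as that of Crhbp and Adcyap1 did, the share was 0.631%, or 15 genes, and 0.757% had 0 counts in all noCRS libraries. Groups that did not overlap were seen in 3 of the 5 genes, 2 with CRS above and 1 with CRS below, against 16.9% of tested genes (10.1% with CRS above and 6.74% with CRS below).

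The start-site sequences of these 2 genes are shown because they were the members that were counted in every CRS library and no noCRS library. They are from RefSeq on GRCm38.p6, from 250 bases before to 50 after the start site, 5′ to 3′ on the gene's strand. Of the 5 genes 4 were matched in the promoter table, and Crh was not. Capitals mark matches to the letters TGACG, the core of the cAMP response element, on either strand, and to TATAAA, the TATA box.
Crhbp, chr13:95444782-95445081, minus strand: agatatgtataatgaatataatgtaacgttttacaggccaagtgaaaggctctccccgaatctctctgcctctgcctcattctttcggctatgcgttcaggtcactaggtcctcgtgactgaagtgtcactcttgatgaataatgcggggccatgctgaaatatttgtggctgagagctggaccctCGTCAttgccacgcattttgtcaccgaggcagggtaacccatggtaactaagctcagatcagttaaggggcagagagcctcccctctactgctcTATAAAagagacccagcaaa
Adcyap1, chr17:93198767-93199066, plus strand: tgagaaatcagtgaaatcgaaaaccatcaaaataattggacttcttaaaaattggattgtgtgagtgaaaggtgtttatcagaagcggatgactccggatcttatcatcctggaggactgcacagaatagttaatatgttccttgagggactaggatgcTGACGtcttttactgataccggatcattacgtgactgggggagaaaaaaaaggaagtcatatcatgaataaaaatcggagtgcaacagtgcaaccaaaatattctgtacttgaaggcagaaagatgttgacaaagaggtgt
In the Crhbp window the core lies on the opposite strand, read as CGTCA, 64 bases before the start site, with TATAAA 30 bases after it. On the minus strand the counted span of Crhbp begins at 95444924, upstream of this start site. The core therefore lies inside the counted span. In the Adcyap1 window the core lies 91 bases before the start site. A second annotated start of Adcyap1, chr17:93198918-93199217, holds the same core and a TATAAA 58 bases before it. Of all 32851 promoter windows, 20.8% hold TGACG on either strand and 13.6% hold TATAAA. The full element TGACGTCA (in 1.79% of windows), the AP-1 letters TGANTCA (7.81%) and the full glucocorticoid response element (in 3 windows) were searched on both strands and not found in the windows of these 4 genes. The windows of the receptors Crhr1 and Adcyap1r1 had no match to any of the 5 motifs. A match is a description of letters and not of binding.

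Adcyap1r1 (chromosome 6, 55451978 to 55501451, plus strand, protein coding) was the one member counted in every library. It had 63.4, 49.05, 30.1 and 29.55 CPM in CRS replicates 1 to 4, and 88.1, 70.7 and 84.2 CPM in noCRS replicates 1 to 3. All CRS libraries lay below all noCRS libraries. The mean was 43.0 ± 16.3 CPM in CRS (SD, n = 4) and 81.0 ± 9.13 CPM in noCRS (SD, n = 3), a ratio of 0.531. The log2 fold change of -0.91 ± 0.31 SE (95% interval -1.62 to -0.21) did not pass the adjusted threshold (edgeR unadjusted p = 0.0168, adjusted p = 0.207). An edgeR unadjusted p under 0.05 was reached by 13.6% of tested genes. With library totals alone, which moved the median of all tested genes by -0.16, the log2 fold change of Adcyap1r1 was -1.06 (edgeR adjusted p = 0.159).

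Astrocytes and oligodendrocyte precursors are known to express this receptor, and the summed markers of each were lower in several CRS libraries. The 7 astrocyte markers summed to 5254, 4576, 4963 and 9706 CPM in CRS replicates 1 to 4. In noCRS replicates 1 to 3 they summed to 9442, 8721 and 8263 CPM. Of the 7, 0 were called, against 2.30% of all tested genes. The median log2 fold change of the 7 was -0.51, and 1 was positive, that of Gfap. Gfap averaged 76.0 ± 26.2 CPM in CRS (SD, n = 4) and 27.7 ± 21.7 CPM in noCRS (SD, n = 3), without overlap. Apoe, the most abundant of the list, averaged 3530 ± 814 CPM in CRS (SD, n = 4) and 5099 ± 154 CPM in noCRS (SD, n = 3). It also did not overlap (edgeR adjusted p = 0.217). CRS replicate 4 was the highest of all 7 libraries in the astrocyte sum and the lowest in Adcyap1r1. The 5 precursor markers summed to 762, 1185, 1144 and 854 CPM in CRS and to 1688, 1547 and 1265 CPM in noCRS, with 3 of 5 called lower, against 0.230% of all tested genes. Per 1000 astrocyte marker counts there were 12.1, 10.7, 6.06 and 3.04 counts of Adcyap1r1 in CRS and 9.33, 8.11 and 10.2 in noCRS, which overlapped. Per 1000 precursor marker counts there were 83.2, 41.4, 26.3 and 34.6 in CRS and 52.2, 45.7 and 66.55 in noCRS, which also overlapped. Per 1000 counts on 6 pan-neuronal markers there were 7.86 to 18.5 in CRS and 317 to 463 in noCRS. The part of the glial transcripts in the Adcyap1r1 difference was not tested.

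Levels of the genes were compared per kilobase of exon. In CRS the order of the means was Crhbp at 9.74 ± 7.78, Adcyap1r1 at 6.52 ± 2.47, Adcyap1 at 3.88 ± 2.96, Crh at 1.91 ± 2.23 and Crhr1 at 1.25 ± 1.63 CPM per kilobase (SD, n = 4 each). Each pair of neighbours in that order overlapped between libraries. In noCRS Adcyap1r1 stood first at 12.3 ± 1.38 CPM per kilobase (SD, n = 3), with its lowest library at 10.7, above every value of the other 4 genes. Crh followed at 0.579 ± 1.002 and Crhr1 at 0.126 ± 0.219 CPM per kilobase (SD, n = 3), which overlapped, and Crhbp and Adcyap1 were at 0.

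The receptor-to-ligand balance of the PACAP pair could be set only in CRS. Per kilobase, the Adcyap1r1 level over the Adcyap1 level was 1.21, 1.79, 3.12 and 2.30 in CRS replicates 1 to 4, so the receptor was the higher of the pair in each. Crhbp over Crh was 4.98 and 2.14 in the 2 CRS libraries with Crh above the floor, while in noCRS replicate 1, the one noCRS library with Crh, the binding protein was at 0. In CRS the level of Adcyap1r1 exceeded that of 62.9% of tested genes and that of Crhbp 70.9%. In noCRS Adcyap1r1 exceeded 75.5% of tested genes and Crhr1 4.3%.

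**Figure D3:**
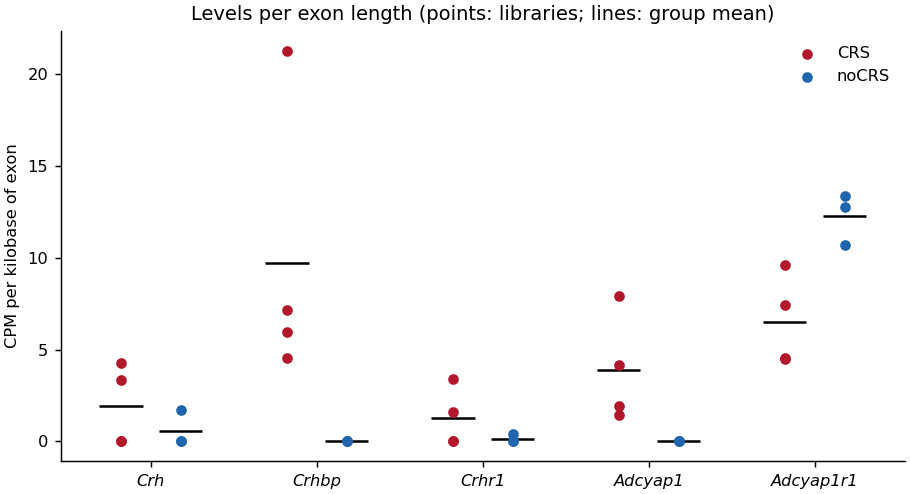
CPM per kilobase of exon for each gene, one point per library and a line at the group mean, CRS in red and noCRS in blue. In CRS the libraries of neighbouring genes overlap; in noCRS Adcyap1r1, at 10.7 to 13.4, stands above the other 4 genes.

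The wider peptide family could be tested only in part. In the list of other PACAP and secretin family ligands, receptors and receptor-modifying proteins, 7 of 15 genes were tested and 5 had 0 counts throughout. Of the tested genes edgeR called 0, against 2.30% of all tested genes. There were 2 with an unadjusted p under 0.05, against 13.6%. DESeq2 called 1 gene of the list, against 9.14% of its genes, and limma-voom 0, against 3.58%. Groups did not overlap in 2 tested genes, Vip and Ramp3, both with CRS above, against 10.1% of all tested genes. The median log2 fold change was 0.07. Vip, a peptide related to PACAP, had 20.8, 94.6, 32.8 and 37.5 CPM in CRS and 0, 0 and 5.79 CPM in noCRS (edgeR adjusted p = 0.300). Vipr2, a receptor shared by PACAP and VIP, had 0 to 35.5 CPM in CRS and 11.85 to 34.98 CPM in noCRS. Vipr1 was found in 1 CRS library, at 1.28 CPM.

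Over both groups the 2 genes of highest level per kilobase in this list were the receptor activity-modifying proteins Ramp1 and Ramp2. In CRS alone Ramp3, at 31.6 CPM per kilobase, lay above Ramp2 at 30.2. Ramp1 measured 183 ± 32.97 CPM in CRS (SD, n = 4) and 223 ± 42.0 CPM in noCRS (SD, n = 3), with edgeR adjusted p = 0.660. Ramp2 measured 99.8 ± 6.60 CPM in CRS (SD, n = 4) and 94.8 ± 18.75 CPM in noCRS (SD, n = 3), and shares 33.4% of its exon bases with Vps25. Ramp3, named after its values were seen, had 33.45 to 63.1 CPM in CRS and 0 to 1.83 CPM in noCRS (edgeR adjusted p = 0.0565).

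Downstream of both receptors, cAMP activates protein kinase A. In the list of PKA, EPAC and CREB effectors 4 of 15 tested genes rose and 0 fell, against 2.30% of tested genes called, and the median log2 fold change was 0.57. Prkar1a, a regulatory subunit and the list's most abundant gene, measured 1515 ± 137 CPM in CRS (SD, n = 4) and 709 ± 25.6 CPM in noCRS (SD, n = 3), with edgeR adjusted p = 0.00774. Prkacb, a catalytic subunit, rose to 221 ± 52.8 CPM in CRS against 54.9 ± 7.84 CPM in noCRS (adjusted p = 0.00626). Prkar1b, a regulatory subunit of neurons, rose to 123 ± 32.3 CPM in CRS against 23.65 ± 7.44 CPM in noCRS (adjusted p = 0.0103). Prkar1b shares 8.95% of its exon bases with another gene.

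Crem, a cAMP-responsive transcription factor, rose to 138, 164.5, 137 and 81.1 CPM in CRS replicates 1 to 4, against 28.1, 22.0 and 12.6 CPM in noCRS (log2 fold change of 2.64, SE 0.36, edgeR adjusted p = 0.0103). The catalytic subunit Prkaca measured 76.65 ± 11.3 CPM in CRS (SD, n = 4) and 51.55 ± 6.86 CPM in noCRS (SD, n = 3), short of the threshold (edgeR adjusted p = 0.240). Creb1 had 21.5 to 36.8 CPM in CRS and 20.4 to 34.6 CPM in noCRS. Without noCRS replicate 2 the calls of Prkar1a (edgeR adjusted p = 0.0501) and Crem (adjusted p = 0.0544) were lost. The pan-neuronal markers, which summed to between 2686 and 3924 CPM in CRS and between 153 and 278 CPM in noCRS, moved with these genes, and their part was not tested.

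Of the G proteins and adenylyl cyclases 1 of 11 tested genes rose and 0 fell, against 2.07% of all tested genes higher, with a median log2 fold change of 0.34. It was Gnas, the stimulatory G protein subunit through which both receptors act, at 495 ± 41.6 CPM in CRS (SD, n = 4) and 301 ± 24.7 CPM in noCRS (SD, n = 3), with edgeR adjusted p = 0.0416. This call was lost when any 1 library was left out (adjusted p = 0.0663 to 0.185), with DESeq2 size factors (0.0606) and with library totals alone (0.0945). Gnas shares 14.9% of its exon bases with genes on the other strand, which these unstranded libraries cannot tell apart. Gna11, a G protein subunit of the calcium pathway, measured 131 ± 26.8 CPM in CRS (SD, n = 4) and 103 ± 3.29 CPM in noCRS (SD, n = 3), with adjusted p = 0.555.

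Of the cAMP phosphodiesterases, which end the signal, 1 of 14 tested genes rose and 0 fell, against 2.07% of all tested genes higher, with a median log2 fold change of -0.29. Pde1a, a calmodulin-dependent form, had 160 to 185 CPM in CRS and 8.70 to 25.8 CPM in noCRS (log2 fold change of 3.35, SE 0.37, edgeR adjusted p = 0.00492). The pan-neuronal markers moved with it, at a mean sum of 3450 ± 549 CPM in CRS (SD, n = 4) and 219 ± 63.0 CPM in noCRS (SD, n = 3), and their part was not tested. Pde4b, the most abundant per kilobase, measured 381 ± 16.5 CPM in CRS (SD, n = 4) and 423 ± 126 CPM in noCRS (SD, n = 3), with adjusted p = 0.867.

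Peptide precursors are cut and amidated before release. Of 7 processing genes 1 rose and 0 fell, against 2.07% of all tested genes higher, with a median log2 fold change of 0.60. It was Pcsk2, a convertase of dense-core vesicles, at 176 ± 34.9 CPM in CRS (SD, n = 4) and 49.7 ± 11.1 CPM in noCRS (SD, n = 3), with edgeR adjusted p = 0.00871 (0.0501 without noCRS replicate 2). Pcsk2 shares 4.54% of its exon bases with genes on the other strand. The same pan-neuronal sums, 3450 CPM in CRS and 219 CPM in noCRS on average, stand beside this rise, and their part was not tested. Cpe, a carboxypeptidase that trims peptides, measured 4136 ± 930 CPM in CRS (SD, n = 4) and 3473 ± 147 CPM in noCRS (SD, n = 3), with adjusted p = 0.691. Scg5, a chaperone of Pcsk2, measured 380 ± 107 CPM in CRS (SD, n = 4) and 228 ± 26.5 CPM in noCRS (SD, n = 3), with adjusted p = 0.168.

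Among receptor kinases and arrestins, which desensitise such receptors, edgeR called 0 of 6 tested genes, against 2.30% of all tested genes. Of the 6, 2 had an unadjusted p under 0.05, against 13.6% of all tested genes. Likewise 0 were called with limma-voom or DESeq2, against 3.58% and 9.14% of their genes. The median log2 fold change was -0.38. Grk3, a kinase known to act on CRHR1, had 16.8, 8.52, 14.9 and 33.7 CPM in CRS and 70.9, 37.15 and 34.9 CPM in noCRS (edgeR adjusted p = 0.237). Arrb2, an arrestin, had 5.55 to 12.98 CPM in CRS and 2.56 to 7.72 CPM in noCRS (adjusted p = 0.724).

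**Figure D4:**
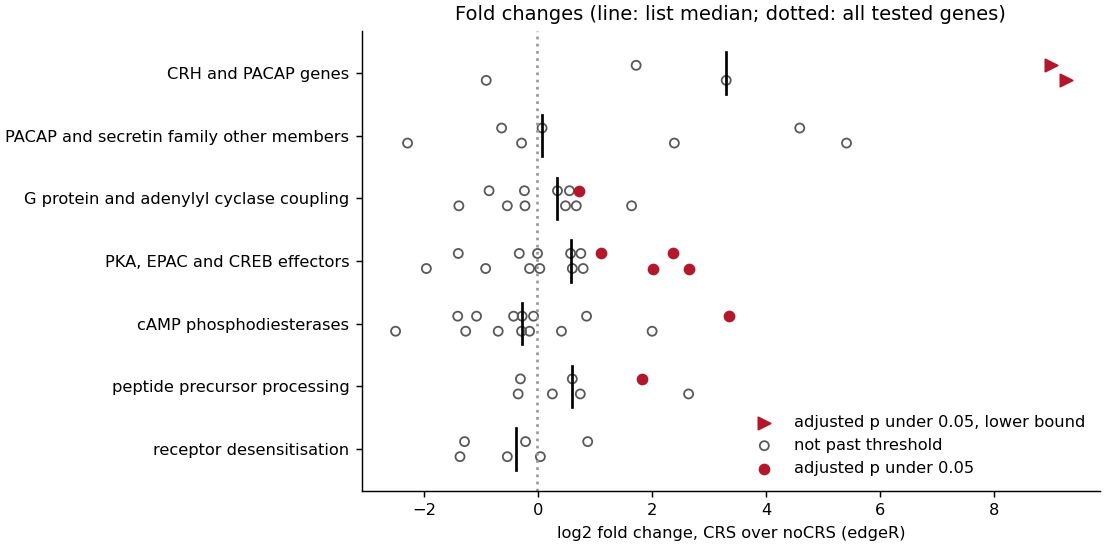
Log2 fold change of CRS over noCRS (horizontal axis) for each tested gene of the CRH and PACAP systems and of 6 pathway lists, filled where edgeR's adjusted p was under 0.05; black lines mark list medians and the dotted line that of all tested genes (-0.02). Triangles place Crhbp and Adcyap1 at their lower bounds of 9.26 and 9.0, the 4 filled points of the PKA list are Prkar1a, Prkacb, Prkar1b and Crem, and the receptor desensitisation list has none.

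The genes most like each member were those with the highest Pearson r of log2 CPM over the 7 libraries, among 11254 annotated genes of at least 5 CPM in either group. For Crhbp they were Ipcef1 (r = 0.997), Ptgs2 (r = 0.995) and Fgf12 (r = 0.995). Ipcef1 and Ptgs2, Ptgs2 being an enzyme of prostaglandin synthesis, shared the 0 counts in all noCRS libraries, and Ptgs2 had 8.97, 25.55, 16.1 and 14.0 CPM in CRS. For Adcyap1 they were Col12a1 (r = 0.998), Fank1 (r = 0.997) and Skap1 (r = 0.996), all 3 at 0 in noCRS. Crhbp and Adcyap1 had an r of 0.98 with each other, though the first was highest in CRS replicate 2 and the second in CRS replicate 1.

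For Adcyap1r1 the most alike were P3h4 (r = 0.978), Taok2 (r = 0.969) and Fuca1 (r = 0.964). Fuca1, a lysosomal fucosidase, had 203, 187, 166 and 159 CPM in CRS and 244, 242 and 231 CPM in noCRS. For Crh they were Ccar1 (r = 0.984), Esyt2 (r = 0.970) and Golga3 (r = 0.956), and for Crhr1 Ccdc106 (r = 0.941), Mllt3 (r = 0.937) and Ass1 (r = 0.934). Ccdc106 shares 65.1% of its exon bases with other genes, and its counts are uncertain. These values describe likeness over libraries that share the contrast.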

How the data were processed

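RNA-seq counts of 4 CRS and 3 noCRS libraries were analysed. The authors deposited 1 table of unnormalised counts for 55367 genes, with exon coordinates and exon length. Per the submitters' processing notes reads were handled with HISAT or HISAT2, featureCounts, FastQC and DESeq2 on GRCm38, without versions. Column names end as STAR output does, so the aligner was not settled. Per the labels' protocols libraries were made with a transposase kit, which does not mark strand. Whether reads with several alignments were counted is not stated. The spans of all 5 genes equalled those of GENCODE M21, and their exons overlapped no other gene.

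The test was the quasi-likelihood F test of edgeR 4.0.16 (R 4.3.3), after TMM scaling and the default expression filter, with no covariate. The SE is the log2 fold change divided by the square root of its F statistic. Log2 CPM used a prior count of 2. Alternatives tried were limma-voom with sample weights (limma 3.58.1), DESeq2 1.42.0, its size factors, library totals, other filters, a replicate block and each library left out. The procedure was tested on simulated data, in which changes were added to genes drawn from a mean shared by both groups. Genes with no counts in a whole group, as Crhbp and Adcyap1 were in noCRS, were not set up in it. The lowest chi-square per gene between libraries was 93.6, so no library was a copy of another, and each was counted as its own sample. This does not show that the libraries came from different animals. The genes and lists were chosen with earlier results of these data known.

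Named genes were the 5 members; of each pathway list the called genes and the 2 of highest level per kilobase; of each marker list the sum; and the 3 genes of highest correlation with each member. Others were named after their values were seen.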

Additional observations from a re-analysis of the deposited data

Results flagged for a closer look

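Among 65 sets of 4 CRS values (named genes and marker sums), 6 had a library whose gap to its nearest neighbour exceeded Dixon's 95% critical value. The rate of about 1 in 20 by chance is for independent, normally distributed values. These sets share the same libraries and some genes, so the 6 cannot be set against it. Of the 6, 4 were CRS replicate 2. Crhbp was 38.3 CPM there, against 12.9 CPM in the nearest CRS library. Gad1, the GABA-synthesising enzyme, was 162 CPM there, against 77.8 CPM in the nearest. The summed interneuron markers were 1007 CPM there, against 373 CPM, and Scg5 was 539.6 CPM, against 345 CPM. In CRS replicate 4 the summed astrocyte markers were 9706 CPM, against 5254 CPM in the nearest CRS library. P2ry12, a microglial receptor, was 13.4 CPM there, against 0.574 CPM in the nearest.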

How the results depend on the processing

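With each library left out, between 142 and 352 genes were called over the table, 410 with all libraries. DESeq2 called 1631 and limma-voom 639, and the causes were not tested. The fitted log2 fold changes of Crhbp (12.22) and Adcyap1 (11.97) depend on a prior count because noCRS was at 0. Leaving out a library gave 11.5 to 12.41 for Crhbp, 11.35 to 12.26 for Adcyap1, and 1 to 2 called members. The direction of all 5 genes was the same under every alternative in which the gene was tested; Crh was not tested without CRS replicate 2 or 3, nor Crhr1 without CRS replicate 1 or 4. Leaving out a library gave 1.14 to 9.38 for Crh, 2.72 to 9.74 for Crhr1 and -1.16 to -0.79 for Adcyap1r1 (edgeR adjusted p = 0.107 to 0.434).

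Replicate numbers did not pair the libraries: deviations from group means correlated at 0.0153, -0.00319 and 0.0228 for numbers 1 to 3. With the replicate number as a block, 12 genes were called over the table. The block called 0 of the 5 members, with log2 fold changes of 12.31 for Crhbp (edgeR adjusted p = 0.220) and 12.16 for Adcyap1 (adjusted p = 0.242). The block gave 7.33 for Crh (1.72 without it) and 0.35 for Crhr1 (3.30 without it), and limma-voom gave 2.20 for Crhr1. The block also called 0 of the G protein, PKA, phosphodiesterase and processing lists.

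In the pathway lists, leaving out a library gave 0 to 2 called genes for other PACAP and secretin family members, 0 for G proteins and cyclases, 2 to 4 for PKA, EPAC and CREB effectors and 0 to 1 for processing genes. DESeq2 called 1 secretin family gene and 2 of the G protein list (1 higher and 1 lower), against 9.14% of its genes over the table. DESeq2 size factors, library totals and the removal of the expression filter each called 0 of the G protein list. With no correction for length, the mean Adcyap1r1 to Adcyap1 ratio in CRS was 3.68, against 2.10 per kilobase; the exon lengths of 6.60 and 3.78 kb account for the change.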
